A study of Mus musculus with 18 samples.

Results

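The genes of the other forms of neuronal ceroid lipofuscinosis were followed in mice that lack Ppt1. Every probe set of the deposited value table whose platform symbol was Tpp1, Cln3, Cln6, Cln8, Mfsd8, Ctsd, Grn, Ctsf or Dnajc5 was taken, which gave 9 of the 18194 genes named on the array and 22 of its 45101 probe sets. Of these, 21 were bright enough to be tested, among 27022 tested in all. The product of Ppt1, palmitoyl-protein thioesterase 1, cleaves fatty acyl groups off proteins inside lysosomes, and people without it develop the infantile form of the disease. The study ran 18 Affymetrix mouse arrays, 3 for each of 6 groups. These were the Ppt1 knockout aged 3, 5 and 8 months and the wild type aged 3, 5 and 8 months. By sex, 5 groups consisted of 1 male and 2 females and the 8-month knockout of 2 males and 1 female. The labels used here give no strain, and they give the RNA source as both brain and cochlea. Whether each array stands for its own mouse is not stated, so p-values reflect only the spread between these samples, part of which could be technical.

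Neuronal ceroid lipofuscinoses are inherited storage diseases in which autofluorescent material collects in lysosomes and neurons are lost. Their genes encode proteins of several compartments. Cathepsin D (Ctsd), tripeptidyl peptidase 1 (Tpp1) and cathepsin F (Ctsf) are soluble proteases of the lysosome, and progranulin (Grn) is a secreted protein that is also delivered to lysosomes and cleaved there into granulins. Cln3 and Mfsd8 encode membrane proteins of late endosomes and lysosomes, Cln6 and Cln8 encode membrane proteins of the endoplasmic reticulum that act in the export of lysosomal enzymes, and Dnajc5 encodes cysteine string protein alpha, a palmitoylated co-chaperone of synaptic vesicles.

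The genotype labels matched the targeted gene, since the brightest Ppt1 probe set had a signal (linear array intensity) of 0.88 to 23.4 on the 9 knockout arrays and 543 to 629 on the 9 wild-type arrays. Array medians lay between 43.17 and 46.09. Genes of neurons, microglia and astrocytes were above background on all 18 arrays (12 of 12, 16 of 16 and 10 of 10 marker genes), while 3 of 10 cochlear markers were, and the hair cell genes Slc26a5 and Pou4f3 were above it on 3 arrays each. The 8-month knockout arrays differed among themselves. Their mean correlation with the other arrays of their group was 0.9669, 0.9694 and 0.9614 for replicates 1, 2 and 3, against at least 0.979 for every other array, and results at 8 months are therefore also given without them. Where replicates 1 and 2 are both left out, the 8-month knockout is 1 array with no spread of its own, and the change is given as a value with no p.

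Ctsd, Grn and Tpp1 were higher in the knockout over all ages, by 2.05-fold, 1.82-fold and 1.31-fold for their brightest probe sets, and 1 of 4 Cln8 probe sets was 1.22-fold higher. One of 5 Dnajc5 probe sets was lower, at 0.79 of the wild type. Cln3, Cln6, Mfsd8 and Ctsf did not pass the test. In all, 7 of 21 probe sets were higher and 1 was lower at an adjusted p under 0.05 in limma's fit of the mean over ages, against 6.62% higher and 6.02% lower among all 27022 probe sets tested. The 9 knockout arrays lay entirely above the 9 wild-type arrays for 5 of the 21 and entirely below for 0, against 1.13% and 0.377% of all probe sets tested. The median log2 change of the 21 was 0.06.

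The promoters of Ctsd, Grn and Tpp1 are shown because these genes rose, and one Cln3 window is shown beside them because it holds the same short motifs in a gene that did not pass the test. They were taken from RefSeq (GRCm38.p6), from 250 bases before to 50 bases after the annotated start, and RefSeq windows were matched for 7 of the 9 genes (8 windows). Capitals mark CACGTG, the core that basic helix-loop-helix factors such as Tfeb bind, and where it is extended, TCACGTGA. Both are their own reverse complement, so a search of one strand covers both, and every TCACGTGA also counts as a CACGTG.
Ctsd, chr7:142387778-142388077, minus strand: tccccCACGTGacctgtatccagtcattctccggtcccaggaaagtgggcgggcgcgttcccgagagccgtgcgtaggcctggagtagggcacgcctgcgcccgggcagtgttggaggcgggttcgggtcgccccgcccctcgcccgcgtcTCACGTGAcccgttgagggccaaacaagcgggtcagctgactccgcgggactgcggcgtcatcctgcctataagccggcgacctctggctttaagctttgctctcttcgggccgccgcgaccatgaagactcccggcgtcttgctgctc
Grn, chr11:102430257-102430556, plus strand: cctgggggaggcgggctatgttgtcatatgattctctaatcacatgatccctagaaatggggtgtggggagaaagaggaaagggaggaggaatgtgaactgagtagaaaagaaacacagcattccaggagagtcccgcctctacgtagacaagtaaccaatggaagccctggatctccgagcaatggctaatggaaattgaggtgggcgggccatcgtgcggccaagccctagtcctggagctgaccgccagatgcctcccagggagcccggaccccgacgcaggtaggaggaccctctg
Tpp1, chr7:105752186-105752485, minus strand: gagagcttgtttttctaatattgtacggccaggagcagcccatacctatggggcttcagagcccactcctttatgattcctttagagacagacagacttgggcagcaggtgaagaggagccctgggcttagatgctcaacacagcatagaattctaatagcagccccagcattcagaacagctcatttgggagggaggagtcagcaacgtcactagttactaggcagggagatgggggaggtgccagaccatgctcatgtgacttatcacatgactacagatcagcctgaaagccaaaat
Cln3, chr7:126583187-126583486, minus strand: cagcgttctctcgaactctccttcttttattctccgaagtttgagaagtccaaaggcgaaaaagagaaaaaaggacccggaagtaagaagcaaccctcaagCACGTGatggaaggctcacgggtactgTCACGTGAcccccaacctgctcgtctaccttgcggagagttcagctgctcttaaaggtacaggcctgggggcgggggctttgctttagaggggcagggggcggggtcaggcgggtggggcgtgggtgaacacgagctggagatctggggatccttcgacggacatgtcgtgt
The Ctsd window holds 2 matches to CACGTG, and the one that starts 98 bases before the gene's start lies within the longer TCACGTGA. The Cln3 window also holds 2, and the CACGTG that starts 121 bases before the start lies within TCACGTGA. The Ctsf window (chr19:4854915-4855214, plus strand, not shown) holds CACGTG alone. These letters are not in the windows of Grn, Tpp1, Mfsd8 or Cln6, nor in the other Cln3 window. Among 32851 windows of the same length, 7.15% hold CACGTG and 0.974% hold TCACGTGA. Only exact matches were searched, so sequences that differ from these letters in any base were not counted. A match, or the lack of one, is a description of the letters and not of binding.

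Among the brightest probe sets of the 9 genes, that of Ctsd changed most. Cathepsin D is an aspartic protease that breaks down proteins delivered to the lysosome. Its probe set read 1342, 1390 and 1427 in the knockout at 3 months, 1924, 2150 and 2012 at 5 months, and 2992, 3104 and 1893 at 8 months. In the wild type it read 883, 908 and 906 at 3 months, 924, 986 and 965 at 5 months, and 1015, 971 and 949 at 8 months. Every knockout array was above every wild-type array. The knockout groups rank by age, with means of 1387 ± 42.5, 2029 ± 114 and 2663 ± 669 at 3, 5 and 8 months (SD over 3 arrays), but 8-month replicate 3 lay below all 5-month knockout arrays. The wild-type means lay lower and closer together, at 899 ± 13.6, 958 ± 31.3 and 978 ± 33.6 for these ages, and the 8-month and 5-month arrays overlapped.

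The log2 change of Ctsd over all ages was 1.04 ± 0.06 (SE, adjusted p 2.03e-10). By age it was 0.62 ± 0.11 at 3 months (adjusted p 0.00419), 1.07 ± 0.11 at 5 months (adjusted p 2.44e-06) and 1.43 ± 0.11 at 8 months (adjusted p 2.74e-08). The standard errors are alike because the model shares a single estimate of spread across the 6 groups, while the knockout signals varied most at 8 months. In a fit of just the groups compared, the 8-month adjusted p was 0.000951. The signal ratios were 1.54, 2.12 and 2.72. Without a variance trend in the model the 3-month call was lost (adjusted p 0.0652). At 8 months the change was 1.63 without knockout replicate 3, and 0.97 with replicate 3 as the remaining knockout array.

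Grn rose on all 3 of its probe sets. Progranulin is needed for lysosomal function, and in people loss of both copies causes a ceroid lipofuscinosis. The brightest probe set, 1438629_x_at, read 996, 937 and 948 in the knockout at 3 months, 1262, 1144 and 1174 at 5 months, and 1604, 1563 and 1139 at 8 months. In the wild type it read 620, 629 and 620 at 3 months, 615, 616 and 686 at 5 months, and 617, 700.1 and 675 at 8 months. The groups did not overlap at any age, and 8-month knockout replicate 3 again lay just below the 5-month knockouts. Over all ages its log2 change was 0.86 ± 0.06 (adjusted p 4.38e-10), with 0.61 ± 0.10, 0.88 ± 0.10 and 1.09 ± 0.10 at 3, 5 and 8 months (adjusted p 0.00109, 5.06e-06 and 1.96e-07). The spread was again shared across the groups, and in a fit of just the groups compared the 8-month adjusted p was 0.00124.

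The suffix x_at marks probe sets of which some probes can also match other transcripts, and 2 of the Grn probe sets carry it. The one without it, 1448148_at, read 349 to 352 in the knockout at 3 months, 362 to 440 at 5 months and 405 to 604 at 8 months, against 229 to 265, 212 to 242 and 249 to 263 in the wild type. It therefore moved the same way, with a log2 change of 0.78 ± 0.07 over all ages (adjusted p 4.91e-08) and 0.51 ± 0.12 at 3 months (adjusted p 0.0357). The 3-month call was lost without any of 8 single arrays, all 6 of that age among them (adjusted p up to 0.197), with median centring (0.0584), with no filter (0.0532) and with no variance trend (0.115). The remaining probe set, 1456567_x_at, changed by 1.04 ± 0.06 over all ages (adjusted p 4.73e-11). At 8 months, with replicate 3 as the remaining knockout array, the 3 Grn probe sets differed by 0.77 (1438629_x_at), 1.05 (1456567_x_at) and 0.66 (1448148_at).

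Tpp1 rose less. Tripeptidyl peptidase 1 removes tripeptides from the amino terminus of proteins in the lysosome, and its loss causes the late infantile disease. Probe set 1448313_at read 930, 917 and 897 in the knockout at 3 months, 1095, 1009 and 972 at 5 months, and 1201, 1277 and 918 at 8 months. In the wild type it read 798, 778 and 797 at 3 months, 759, 758 and 769 at 5 months, and 720.5, 806 and 780.5 at 8 months. All knockout arrays lay above all wild-type arrays, and 8-month knockout replicate 3 stood at the level of the 3-month knockouts. The log2 change was 0.39 ± 0.05 over all ages (adjusted p 2.08e-05), 0.21 ± 0.09 at 3 months (adjusted p 0.441), 0.42 ± 0.09 at 5 months (adjusted p 0.0111) and 0.55 ± 0.09 at 8 months (adjusted p 0.000479).

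The 5-month call of Tpp1 was lost with no variance trend (adjusted p 0.0736) and without knockout replicate 1 (0.35, adjusted p 0.123) or wild-type replicate 2 (adjusted p 0.0558). With replicate 3 as the remaining knockout array at 8 months, the change was 0.24, and without replicate 3 it was 0.68. The dimmer probe set, 1434768_at, ranged over 297 to 330, 330 to 364 and 279 to 543 in the knockout at 3, 5 and 8 months, against 249 to 314, 268.5 to 303 and 263 to 281 in the wild type. Its change was 0.37 ± 0.09 over all ages (adjusted p 0.00628) and 0.63 ± 0.15 at 8 months (adjusted p 0.00967), but the 8-month call was lost without knockout replicate 1 (adjusted p 0.0506) or 2 (adjusted p 0.145) and in a fit of just the groups compared (adjusted p 0.114). With 8-month knockout replicates 1 and 2 both left out, this probe set differed by 0.06 at 8 months, and by 0.18 over all ages, where it no longer passed.

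**Figure D1:**
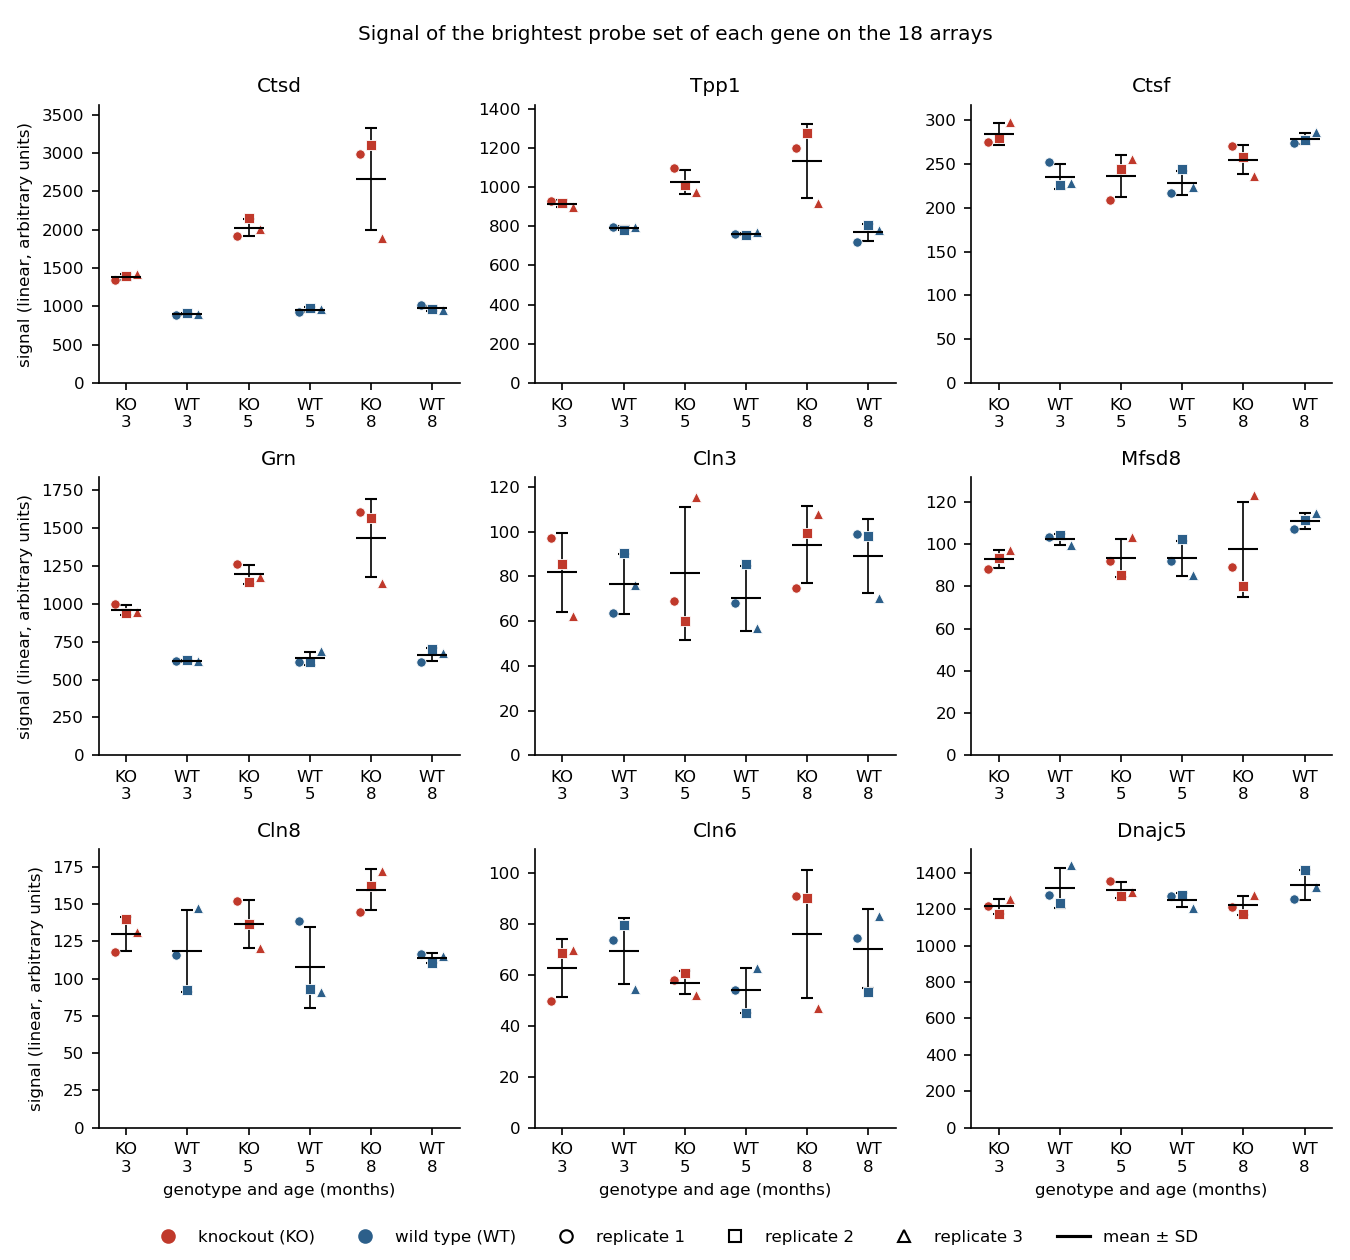
Signal of the brightest probe set of each of the 9 genes on each array, by age in months, with knockout left of wild type, shapes for replicates, and lines for the mean and SD (n = 3 arrays a group). All knockout points lie above all wild-type points for Ctsd, Grn and Tpp1, and the low 8-month knockout point of these genes is replicate 3.

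Ctsf, the remaining soluble protease, is a cysteine protease. Its probe set 1451019_at read 275, 279 and 298 in the knockout at 3 months, 209, 244 and 255 at 5 months, and 270.0, 258 and 237 at 8 months. In the wild type it read 252, 226 and 228 at 3 months, 217, 244 and 223 at 5 months, and 274, 277 and 286 at 8 months. The 3 knockout arrays thus lay above the wild type at 3 months and below it at 8 months. Among all probe sets tested, 9.83% separated upward at 3 months and 14.3% downward at 8 months, and the share that did both was not counted. The change was 0.06 ± 0.06 over all ages (adjusted p 0.522, 95% confidence interval -0.05 to 0.18), 0.25 ± 0.10 at 3 months (adjusted p 0.331) and -0.11 ± 0.10 at 8 months (adjusted p 0.543). The other Ctsf probe set was above background on 2 of 18 arrays and was not tested.

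The lysosomal membrane proteins did not pass. Cln3, whose protein takes part in the handling of glycerophosphodiesters in the lysosome, averaged 85.8 ± 20.3 on knockout arrays and 78.7 ± 15.3 on wild-type arrays with its brighter probe set (signal, SD over 9 arrays). The log2 change was 0.10 ± 0.12 (adjusted p 0.677, interval -0.16 to 0.35) there and 0.06 ± 0.12 on the other probe set (adjusted p 0.785). Mfsd8, reported to encode a chloride channel of these membranes, averaged 94.6 ± 12.5 on knockout arrays and 102 ± 9.1 on wild-type arrays. Its changes were -0.10 ± 0.08 (adjusted p 0.49, interval -0.27 to 0.07) and -0.08 ± 0.13 (adjusted p 0.746). With the ages pooled, knockout and wild-type arrays overlapped for both genes.

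Cln6 and Cln8 encode proteins that form a complex in the endoplasmic reticulum, where lysosomal enzymes are loaded for transport to the Golgi. Cln6 averaged 65.3 ± 16.4 on knockout arrays and 64.6 ± 13.6 on wild-type arrays (signal, SD over 9 arrays), with a log2 change of 0.01 ± 0.12 (adjusted p 0.961, interval -0.24 to 0.27). Within the 8-month knockout it read 91.0, 90.5 and 47.0 on replicates 1, 2 and 3, so that replicates 1 and 2 lay above every wild-type array and replicate 3 near the lowest. The brightest Cln8 probe set, 1459992_x_at, read 118, 140.2 and 131 in the knockout at 3 months, 152, 137 and 120.3 at 5 months, and 145, 162 and 172 at 8 months. In the wild type it read 116, 92.6 and 147 at 3 months, 139, 93.2 and 90.8 at 5 months, and 116, 110.1 and 115 at 8 months. The groups overlapped at 3 and 5 months and separated at 8 months.

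The change of this Cln8 probe set over all ages was 0.28 ± 0.09 (adjusted p 0.0435). This call was lost without most single arrays, with an adjusted p of up to 0.103. It was also lost with median centring (adjusted p 0.0588), with no filter (0.0705) and with no variance trend (0.0602). The other Cln8 probe sets changed by 0.06 ± 0.09, 0.21 ± 0.08 and 0.11 ± 0.14, none of which passed (adjusted p 0.717, 0.107 and 0.685). Of these, 1448456_at had knockout arrays above all wild-type arrays at 3 and 8 months, with 83.7 to 91.2 against 59.3 to 78.1 and 82.3 to 89.2 against 63.6 to 75.2. At 5 months its arrays overlapped (70.4 to 81.1 against 68.3 to 75.5). Of all probe sets tested, 9.83% separated upward at 3 months and 11.7% at 8 months.

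Dnajc5 was represented by 5 probe sets that did not behave alike. The 3 brighter ones differed by -0.06 ± 0.04, -0.11 ± 0.04 and -0.10 ± 0.04 over all ages, and none of them passed (adjusted p 0.403, 0.0946 and 0.131). Probe set 1448851_a_at read 357, 360.3 and 354 in the knockout at 3 months, 251, 322 and 326 at 5 months, and 280, 262 and 364 at 8 months. In the wild type it read 391, 369 and 405 at 3 months, 414, 419 and 354 at 5 months, and 424, 460.1 and 429 at 8 months. The knockout arrays lay below the wild type at each age, although with the ages pooled they overlapped. Among all probe sets tested, 8.61%, 10.1% and 14.3% separated downward at 3, 5 and 8 months, and the share that did so at every age was not counted. Probe set 1448851_a_at fell by 0.34 ± 0.07 on the log2 scale over all ages (adjusted p 0.00137).

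By age, 1448851_a_at changed by -0.12 ± 0.11, -0.39 ± 0.11 and -0.53 ± 0.12 at 3, 5 and 8 months (adjusted p 0.826, 0.0886 and 0.00531). At 8 months it lost its call without knockout replicate 2 (-0.40, adjusted p 0.0839), was -0.66 (adjusted p 0.000139) without replicate 3, and was -0.22 with replicate 3 as the remaining knockout array. Without 5-month knockout replicate 1 the 5-month value was -0.25 (adjusted p 0.479). Probe set 1448850_a_at also passed at 8 months, at -0.24 ± 0.07 (adjusted p 0.03), and lost that call without knockout replicate 1 or 2 or any one of the 3 wild-type arrays. It was also lost with no variance trend (adjusted p 0.0798) and in a fit of just the groups compared (adjusted p 0.0955). The dimmest, 1460498_a_at, averaged 159 ± 36.9 on knockout arrays and 194 ± 27.1 on wild-type arrays (signal, SD over 9 arrays), with a change of -0.28 ± 0.10 (adjusted p 0.0917). Which part of the transcript each probe set reads is not given in the sources used here.

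**Figure D2:**
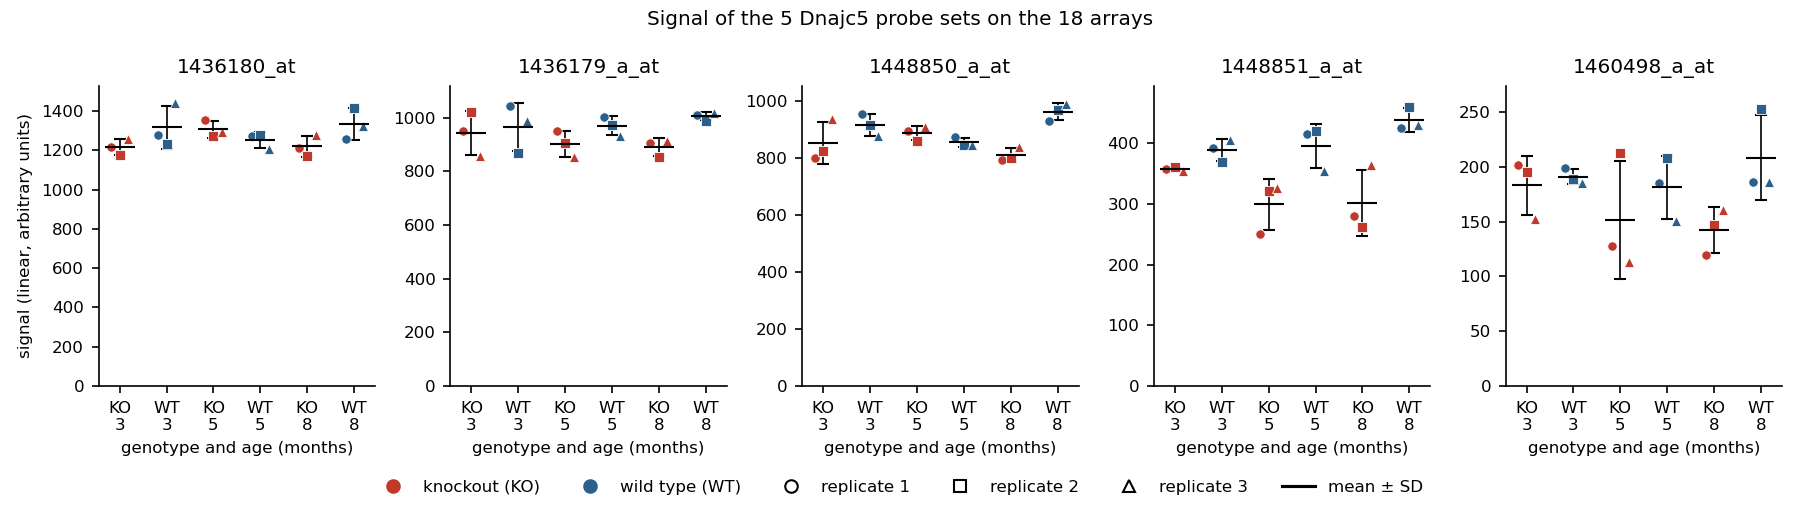
Signal of the 5 Dnajc5 probe sets on each array, by age in months, knockout left of wild type, with lines for the mean and SD (n = 3 arrays a group). The knockout arrays of 1448851_a_at lie below the wild-type arrays at each age, while the brightest probe set overlaps at every age. Of all probe sets tested, 8.61%, 10.1% and 14.3% separate downward at 3, 5 and 8 months.

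By age, 4, 5 and 8 of the 21 member probe sets passed at 3, 5 and 8 months. At 3 months 4 of 21 member probe sets (Ctsd and the 3 of Grn) were higher and 0 were lower, against 0.681% and 0.274% of all tested. At that age the 3 knockout arrays lay wholly above the wild type for 7 and wholly below for 2, against 9.83% and 8.61% of all tested. At 5 months 5 were higher, with Tpp1 added, and 0 were lower, against 1.64% and 0.566%, and the arrays separated upward for 6 and downward for 1, against 10.2% and 10.1%. At 8 months 6 were higher and 2 were lower (both of Dnajc5), against 5.74% and 5.91%, and the arrays separated upward for 7 and downward for 5, against 11.7% and 14.3%. The 5 separated downward were 4 of Dnajc5 and 1 of Ctsf. At an unadjusted p under 0.05 in limma's fit, 0 member probe sets were lower at 3 months and 1 was lower at 5 months. The share of all probe sets at that threshold was not counted.

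The order of these counts by age changed with the 8-month knockout arrays used. Over all 27022 probe sets, 258, 595 and 3147 passed at 3, 5 and 8 months. With 8-month knockout replicates 1 and 2 both left out, 557, 996 and 497 passed, and of the members 4, 6 and 4, with the spread of the 8-month knockout taken from the other groups. Leaving out single arrays moved the 8-month total to between 1266 (without knockout replicate 2) and 5369 (without knockout replicate 3). The 3-month total moved to between 123 (without 3-month knockout replicate 1) and 444 (without 8-month knockout replicate 3), and the 5-month total to between 294 (without 5-month knockout replicate 1) and 933 (without 8-month knockout replicate 3).

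The change in genotype effect from the youngest to the oldest age was tested directly (8-month effect minus 3-month effect). Of 21 member probe sets 2 passed, both higher, against 0.718% higher and 0.326% lower of all tested. They were Ctsd at 0.81 ± 0.16 (adjusted p 0.0177) and Grn 1456567_x_at at 0.62 ± 0.14 (adjusted p 0.0403). The other Grn probe sets had 0.48 ± 0.14 and 0.50 ± 0.17 (adjusted p 0.0937 and 0.151). The call of Ctsd was lost without 8-month knockout replicate 2 (0.68, adjusted p 0.0673) and without wild-type 3-month replicate 2 (adjusted p 0.0598) or 8-month replicate 3 (adjusted p 0.051). With knockout replicates 1 and 2 both left out it was 0.36. The Grn call was lost without any of 13 single arrays. The number of all probe sets that passed here was 282, and between 44 and 1967 without single arrays.

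Within the knockout, Ctsd was higher at 8 than at 3 months by 0.93 ± 0.11 (adjusted p 6.89e-05), and the 3 Grn probe sets by 0.57 ± 0.10, 0.62 ± 0.10 and 0.58 ± 0.12 (adjusted p 0.00201, 0.00136 and 0.00676). These were the 4 member probe sets that passed, all higher, against 2.9% higher and 2.72% lower of all tested. Without replicate 3 of the 8-month knockout 7 passed, and with knockout replicates 1 and 2 both left out 1 passed, with the spread taken from the other groups. Over all probe sets 1519 passed, between 308 and 4301 without single arrays, and 86 in a fit of just the groups compared. In that fit Ctsd passed (adjusted p 0.0417) and the 3 Grn probe sets did not (adjusted p 0.0727, 0.0727 and 0.101). Within the wild type 0 of 21 passed in limma's fit, where 0.0222% of all probe sets were higher and 0.0074% lower, and 1 of them, Ctsf 1451019_at, had an unadjusted p under 0.05 (0.0254, log2 change 0.23).

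**Figure D3:**
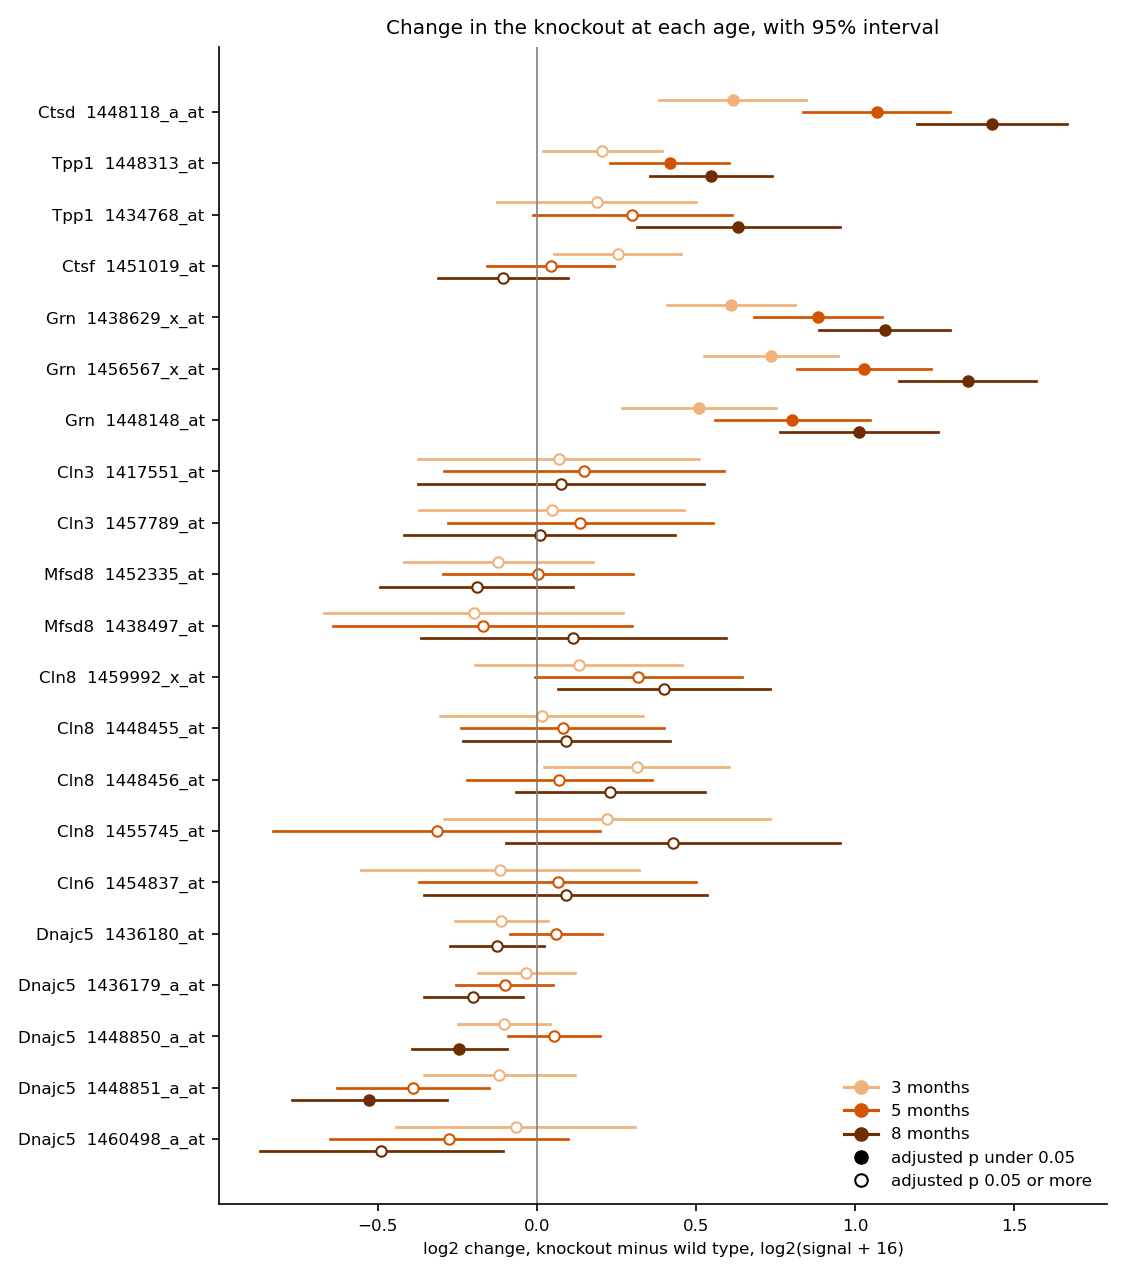
Log2 change, knockout minus wild type, at 3, 5 and 8 months with its 95% confidence interval, for the 21 member probe sets tested, with filled points for an adjusted p under 0.05. Ctsd has 0.62, 1.07 and 1.43, Grn 1438629_x_at 0.61, 0.88 and 1.09, and Dnajc5 1448851_a_at -0.12, -0.39 and -0.53.

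Genes whose products sort, process, modify or bind the members' proteins, and genes of other storage diseases, were counted on the brightest probe set of each gene. Among all 12496 genes measured this way, 8.39% were higher and 6.43% lower over all ages, and the median log2 change was -0.01. Of the 9 members themselves 4 were higher and 0 lower (limma, also 0 lower at an unadjusted p under 0.05), with a median of 0.10. Of 26 sorting and processing partners 6 were higher and 0 lower, with a median of 0.03. At an unadjusted p under 0.05, 8 of them were higher and 3 lower, and the share of all genes at that threshold was not counted. The 5 with the smallest p were the proteases Ctsb (0.48 ± 0.04, adjusted p 6.57e-08), Ctsl (0.53 ± 0.06, adjusted p 9.03e-07) and Lgmn (0.42 ± 0.06, adjusted p 2.53e-05), the cathepsin inhibitor Cst3 (0.33 ± 0.04, adjusted p 4.29e-06) and the endocytic receptor Lrp1 (0.20 ± 0.05, adjusted p 0.00592). The sixth was M6pr, a mannose 6-phosphate receptor (0.20 ± 0.05, adjusted p 0.0152).

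Of 35 genes of other storage diseases 15 were higher and 1 lower, with a median of 0.20. Those with the smallest p were the membrane protein Lamp2 (0.96 ± 0.08, adjusted p 1.7e-08), the hexosaminidase subunit Hexa (0.55 ± 0.05, adjusted p 3.64e-08), the cholesterol carrier Npc2 (0.57 ± 0.06, adjusted p 5.11e-07), the carboxypeptidase Ctsa (0.53 ± 0.06, adjusted p 5.36e-06) and the glucuronidase Gusb (0.69 ± 0.10, adjusted p 3.57e-05). The lower one was Ids, the iduronate sulfatase (-0.12 ± 0.04, adjusted p 0.0264). Psap stands in both of these lists, and Snap25 in those of partners and neurons. The transcription factors of lysosomal genes did not pass, with 0.12 ± 0.09 for Tfeb, 0.08 ± 0.06 for Mitf and 0.02 ± 0.09 for Tfe3 (adjusted p 0.463, 0.481 and 0.912), and Tfec was at background on all 18 arrays.

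**Figure D4:**
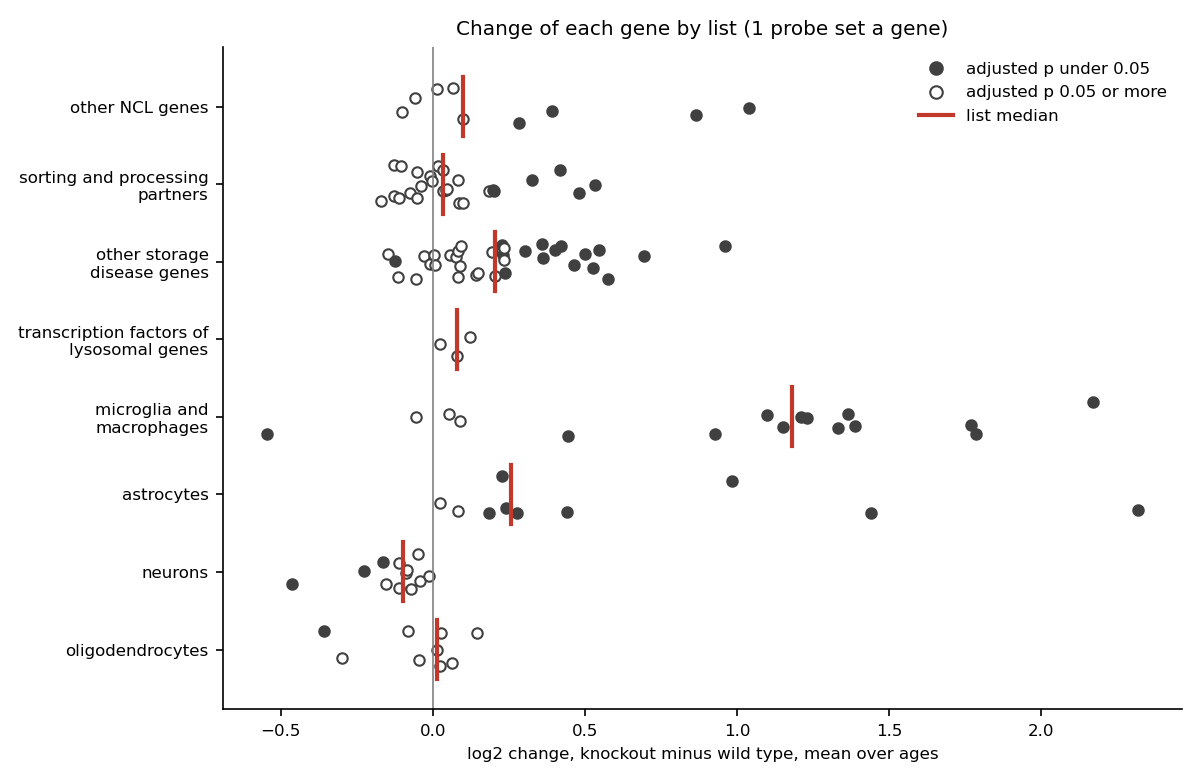
Mean log2 change over the 3 ages (knockout minus wild type) of each gene (brightest probe set) in each list, with filled points for an adjusted p under 0.05 and a red line at the list median. Genes of other storage diseases have 15 of 35 higher, the members 4 of 9, the partners 6 of 26 and microglial markers 12 of 16.

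Cell type markers moved with the same groups. Of 16 microglial and macrophage genes 12 were higher and 1 lower over all ages, with a median of 1.18, led by the signalling adaptor Tyrobp (1.77 ± 0.08, adjusted p 3.28e-12) and Mpeg1 (2.17 ± 0.11, adjusted p 4.42e-12). The lower one was the purinergic receptor P2ry12 (-0.55). Their summed signal was 5625 to 6007, 7267 to 7743 and 6816 to 12505 in the knockout at 3, 5 and 8 months, against 3304 to 3567, 3546 to 4260 and 4238 to 4487 in the wild type. On the 8-month knockout replicates 1, 2 and 3 it was 2.75, 3.21 and 1.75 times the wild-type mean, so replicate 3 was lowest here as it was for Ctsd, Grn and Tpp1. Of 10 astrocyte genes 8 were higher and 0 lower, led by Gfap, the intermediate filament of reactive astrocytes (2.32 ± 0.06, adjusted p 1.37e-16), and the water channel Aqp4 (0.98 ± 0.06, adjusted p 1.14e-10).

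The summed signal of the 10 astrocyte genes was 22135 to 22564, 27985 to 29035 and 29592 to 36511 in the knockout, against 20343 to 20864, 19677 to 20505 and 20364 to 21229 in the wild type. Of 12 neuronal genes 0 were higher and 3 lower (7 lower at an unadjusted p under 0.05), including the vesicular glutamate transporter Slc17a7 (-0.23 ± 0.05, adjusted p 0.00426) and synaptotagmin Syt1 (-0.17 ± 0.04, adjusted p 0.00631). The third was Camk2a (-0.46 ± 0.14, adjusted p 0.0303), and the summed signal of the 12 was 37570 to 39775, 38642 to 40238 and 34888 to 41163 in the knockout at 3, 5 and 8 months, against 41017 to 41780, 40234 to 42517 and 41910 to 42734 in the wild type. The ranges overlapped at 5 months and separated at 3 and 8 months. Of 9 oligodendrocyte genes 0 were higher and 1, Mal, was lower over all ages (-0.36 ± 0.07, adjusted p 0.000909).

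Oligodendrocyte genes differed by age. At 3 months 0 of 9 had a positive change, their median was -0.22, and 1, Mal, was lower (-0.71), against 0.336% lower of all genes measured. At 8 months 2 were higher, Cldn11 (0.82) and Mobp (0.21), and 1, Ugt8a, was lower (-0.70), against 6.97% higher and 5.95% lower of all genes measured. In the 8-month effect minus the 3-month effect 3 of 9 were higher, Cldn11 (1.18 ± 0.18, adjusted p 0.00442), Mobp (0.45 ± 0.09, adjusted p 0.0195) and Mal (0.70 ± 0.16, adjusted p 0.0403), against 0.968% of all genes measured. Between 3 and 8 months within the knockout 3 were higher, Mobp, Cldn11 and Mbp, and 1, Ugt8a, was lower, against 3.67% and 2.12% of all genes. These are the comparisons in which Ctsd and Grn passed, and genes of other cell types passed in them too. Of 10 astrocyte genes 3 were higher in the first and 8 in the second, and 0 were lower in either. Of 16 microglial and macrophage genes 0 passed in the first, and 9 were higher and 0 lower in the second. Of 12 neuronal genes 0 passed in either. The summed oligodendrocyte signal was 21634 to 24389, 25027 to 26367 and 26442 to 28034 in the knockout at 3, 5 and 8 months, against 25593 to 28180, 23625 to 24506 and 23858 to 25224 in the wild type, below it at 3 months and above it at 5 and 8.

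Of 7 endothelial genes 1 was higher (Cldn5), and 0 of 3 cochlear, 0 of 5 choroid plexus and 0 of 1 blood genes passed in limma's fit, nor did any of them at an unadjusted p under 0.05. In bulk RNA, more or fewer cells of a type cannot be told apart from more or less RNA per cell, and the part of these cell types in the values of Ctsd, Grn, Tpp1 and Dnajc5 was not tested.

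**Figure D5:**
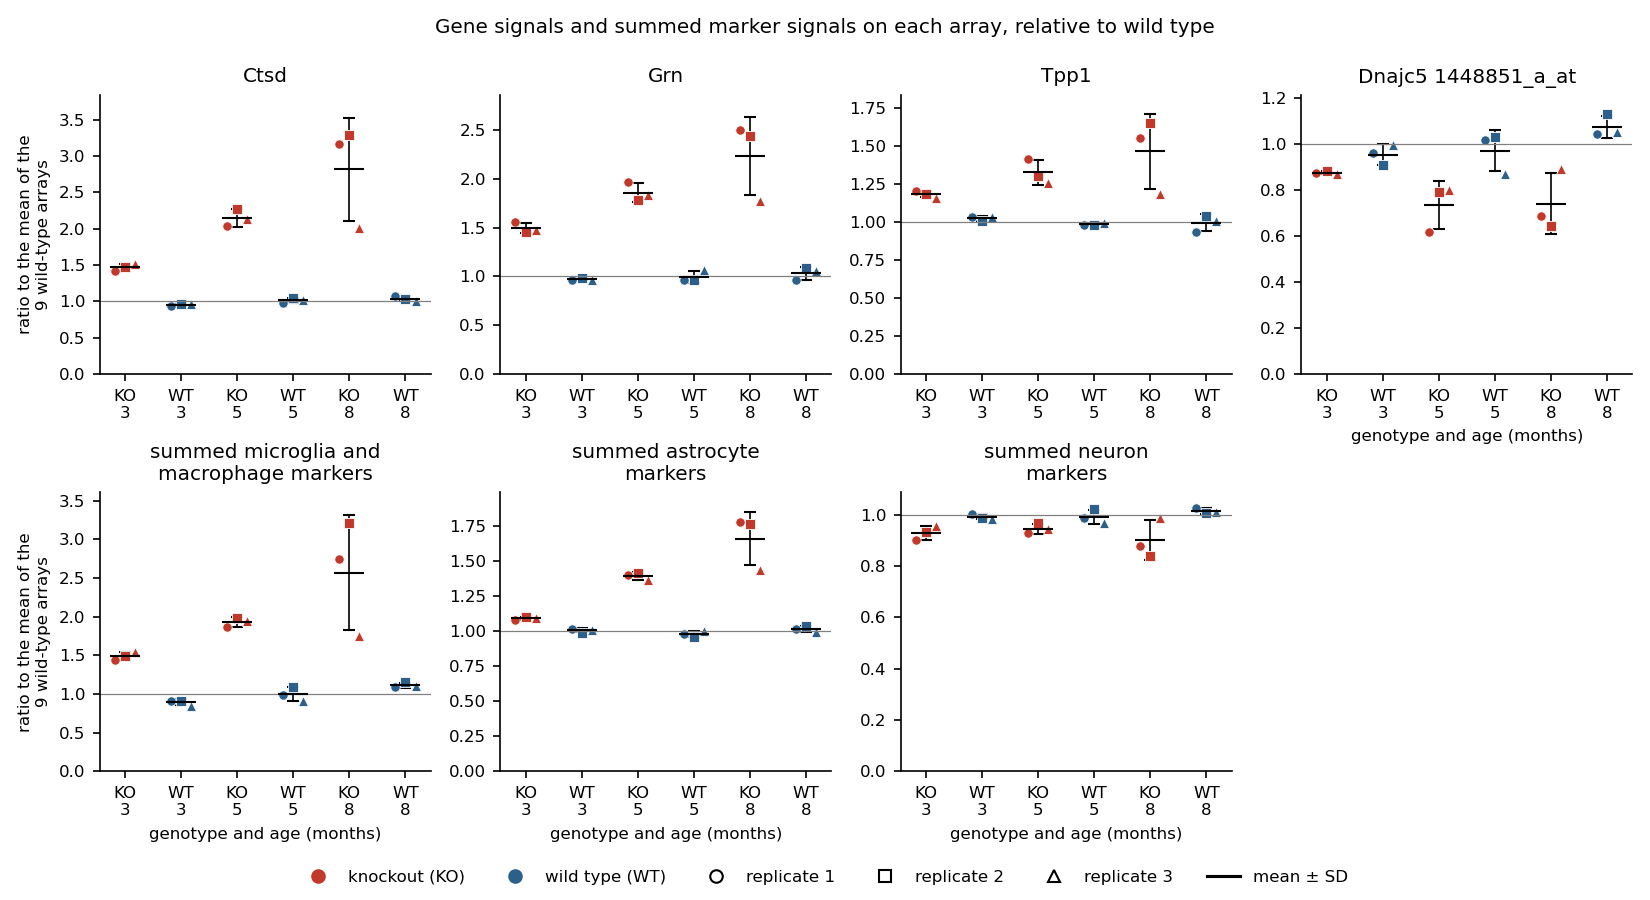
Summed signal of microglial, astrocyte and neuronal marker genes on each array, divided by the mean of the 9 wild-type arrays, below the same ratio for Ctsd, Grn, Tpp1 and Dnajc5 1448851_a_at, by genotype and age in months with knockout left of wild type and lines for the mean and SD (n = 3). Microglial markers on the 8-month knockout replicates 1, 2 and 3 stand at 2.75, 3.21 and 1.75.

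For each member that passed over all ages on its brightest probe set, the 3 genes with the most similar pattern were found as those with the smallest root mean square difference between centred log2 values over the 18 arrays, among 12495 genes. For Ctsd these were S100a1 (0.103), Serping1 (0.124) and Abca1 (0.127). For Grn they were Tmem176b (0.102), Msn (0.113) and Ifitm2 (0.128). For Tpp1 they were Eef1d (0.076), Cd81 (0.0847) and Kif1c (0.0848). For Cln8 they were Fam50a (0.137), Tmed3 (0.142) and Asah1 (0.145). All values come from the same arrays, so a shared pattern includes whatever the arrays share.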

How the data were processed

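Each of the 18 RNA samples was hybridised to its own Affymetrix array. What the authors deposited are linear intensities, 1 per probe set, and the software and scaling that made them are not named in the labels. Trimmed of 2% at either end, each array had a mean of 150, so no normalization was added. Replicates were numbered in record order.

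Values were analysed as log2(signal + 16), a scale on which folds of dim probe sets come out too small. Left out were 64 control probe sets and, of the rest, the 40% with the lowest mean (below 5.361 in log2). The model, with 6 groups and sex as an additive term, was fitted over all arrays by limma (version 3.58.1, R 4.3.3) using lmFit and eBayes with trended variance. P-values, two-sided, were adjusted by Benjamini-Hochberg over all 27022 probe sets, at a threshold of 0.05. Counts at an unadjusted p under 0.05 were made for the members and the lists only, so they have no share of all probe sets beside them. Errors are standard errors after log2 changes and SDs after signals. Background was the 95th percentile of 27 bacterial control probe sets on each array. The fit was tested on simulated data in which 200 probe sets were changed in the knockout. A log2 change of 0.3 was recovered for 31.5% of them over all ages and for 0.5% to 3% at single ages. For a change of 0.5 it was 76% and 24% to 26%, and for a change of 1 it was 97% and 74% to 75.5%. False calls made up 5% to 9.35% of calls over all ages and 0% to 6.79% at single ages. Small changes could thus be missed. The number of arrays limits the precision.

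The members, the lists of partners, storage disease genes, transcription factors and cell type markers, and the tests were chosen with earlier results of these data known. Named were all member probe sets, Ppt1, up to 5 genes each way from the partner and storage lists and 2 from each cell type list with the smallest p, and the 3 most similar genes of each member that passed. M6pr, P2ry12, Camk2a, the oligodendrocyte genes other than Mal, Psap, Snap25, Slc26a5, Pou4f3 and the transcription factors were named outside this rule, after their values were seen. The alternatives changed the scaling (quantile, median centring), the pseudocount (1 or 64), the filter (none, or the lowest 60%), the variance model (no trend, robust) or the weights of arrays, dropped the sex term, kept a single probe set for every gene, fitted just the groups under comparison, left out each array in turn, or left out 8-month knockout replicates 1 and 2 together.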

Additional observations from a re-analysis of the deposited data

Results flagged for a closer look

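The effect of the knockout on Ctsd differed between ages, by 0.81 on the log2 scale for 8 months minus 3 months (limma, adjusted p 0.0177). For Grn 1456567_x_at the same difference was 0.62 (adjusted p 0.0403). Both calls depended on the settings. That of Ctsd was lost with no variance trend (adjusted p 0.0952), in a fit of just the groups compared (0.0521) and without any of 3 single arrays. That of Grn was lost with no variance trend (0.137), in a fit of just the groups compared (0.0905), with no filter (0.0667), with no sex term (0.0537) and without any of 13 single arrays. Ctsf 1451019_at drew attention because all 3 knockout arrays lay above the wild type at 3 months and all 3 lay below it at 8 months. Such separations were found for 9.83% of all probe sets tested upward at 3 months and 14.3% downward at 8 months, and the share with both was not counted. For this Ctsf probe set the difference of the effects was -0.36, which did not pass limma's test (unadjusted p 0.0159, adjusted p 0.22).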

How the results depend on the processing

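Counts of member probe sets that passed depended on the setting as follows. For the difference of the 8-month and 3-month effects (2 as reported) the count was 1 with no filter, 1 with no sex term, 0 with no variance trend, 6 with array weights, 1 with a single probe set for every gene, 0 in a fit of just the groups compared, 0 with 8-month knockout replicates 1 and 2 left out (the remaining array is then assumed to vary like the other groups), and 0 to 7 when single arrays were left out. For 8 minus 3 months within the knockout (4) it was 7 with array weights, 2 with a single probe set for every gene, 1 in a fit of just the groups compared, 1 without those 2 replicates, and 3 to 7 without single arrays. At 8 months (8) it was 3 with a single probe set for every gene, 4 without those replicates and 5 to 9 without single arrays. At 3 months (4) it was 2 with no variance trend and 2 with a single probe set for every gene, a setting that leaves 9 member probe sets by construction and gave 3 at 5 months (5) and 4 over all ages (8). The direction over all ages turned for Cln6 with median centring (-0.0043), without the 2 replicates (-0.16) and without single arrays (-0.038 to 0.091), for Mfsd8 1452335_at (0.013) and 1438497_at (0.019) without the 2 replicates, and without single arrays for 1438497_at (-0.13 to 0.0094) and Cln3 1457789_at (-0.012 to 0.11). At 5 months it turned for Ctsf 1451019_at without single arrays (-0.0039 to 0.12). None of these had passed the test, and the cause of these shifts was not tested. No paired analysis was possible because no replicate number is shared between groups in the labels.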
